A study of Mus musculus and Homo sapiens with 27 samples.

Results

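The genes described here are Myc and growth genes linked to it, among them the nucleolar genes nucleolin and nucleophosmin, measured with lymphochip cDNA arrays in mouse B cells and in a human lymphoma line. Members were all array features whose single gene symbol was Myc, Ncl, Npm1 or Nme1 on the mouse array, and MYC, MAX, NCL, NPM1, NME1 or ODC1 on the human array. That gave 10 of the 4935 genes of both arrays, 4 mouse genes with 8 features and 6 human genes with 22 features. The rule used names and no measured value, but it was set with earlier results of these data known.

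MYC is a transcription factor that binds DNA as a dimer with its partner MAX, at a short motif called the E-box, and drives the genes of cell growth. Its known targets include nucleolin (Ncl), which acts in the transcription and processing of ribosomal RNA, and nucleophosmin (Npm1), a chaperone of ribosome assembly, both among the most abundant proteins of the nucleolus. Nme1 is a nucleoside diphosphate kinase that supplies nucleotides, and ODC1, ornithine decarboxylase, makes the first polyamine. Resting B cells that meet lipopolysaccharide (LPS), a bacterial cell wall product, enlarge, divide and then in part become antibody-secreting plasmablasts, and this last step requires the transcription factor IRF4.

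The mouse samples were splenic B cells of adult Balb-c mice, with 1 disrupted Irf4 allele (Irf4+/-, called Het) or with both disrupted (Irf4-/-, called KO). They were taken at 0 h or after 24, 48 or 96 h of culture in LPS. Het had 3, 2, 2 and 4 arrays at these times and KO had 3 at each time, 23 arrays in all. All of them were hybridised, in Cy5, against 1 reference pool of RNA from B-cell, T-cell and monocyte or macrophage lines in Cy3. The human samples were OCI-Ly7 cells, a line of germinal centre type diffuse large B-cell lymphoma, transduced with an IRF4 vector (Cy5) or with the empty vector (Cy3). Day 2 and day 5 had 1 array each and day 3 had 2. The dyes were never swapped, so a dye effect and a vector effect cannot be told apart. A level below is the log2 ratio of the 2 channels after each array was centred on its median, so a mouse level is relative to the pool and a human level is IRF4 vector over empty vector. The labels call the arrays repeats but do not say that each came from a separate mouse or culture, so the p-values measure the spread between these arrays, which may be technical.

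The direction of the ratios is an assumption (Cy5 over Cy3). On the mouse arrays Cd79b, a B-cell receptor gene, lay above the pool on 23 of 23 arrays (1.97 to 4.05). On the human arrays the mean of the 4 IRF4 features was -0.03 and 1 of 4 features lay above 0 on all 4 arrays, so every human sign below would turn if the ratio ran the other way. The titles of 3 arrays (KO at 24 h replicate 3, KO at 48 h replicates 1 and 3) say KO but the fields of their Cy5 channel say Het. Grouping here goes by title. The arrays carry numbers of the authors' database in 3 ranges. Standard deviations were 1.35 to 3.10 on the 5 mouse arrays of the lowest range. They were 1.12 to 2.38 on those of the middle range and 0.98 to 1.79 on those of the highest. The Het arrays of the lowest range had the widest values (2.81 to 3.10). The correlation between 2 mouse arrays over the named genes lay between 0.10 and 0.89. For KO at 24 h replicate 1 it was 0.10 to 0.44 with every other array. With the other KO arrays at 24 h that array had 0.31 and 0.35, while those had 0.72 with each other. Low values were not confined to it: Het at 24 h replicate 1 had 0.11 with KO at 96 h replicate 1.

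The sequence just before the start of a gene was at hand for Ncl and Nme1, 2 of the 4 mouse members, from RefSeq on the build GRCm38.p6. The 100 bases before each start are shown because these genes rose and fell together below and are textbook MYC targets. The E-box CACGTG, which reads the same on both strands, is in capitals where it occurred. The stretch before the Ncl start is chr1:86359456-86359555, and those before the upstream and the downstream start of Nme1 are chr11:93968273-93968372 and chr11:93968026-93968125, all on the minus strand and written 5′ to 3′ along the gene.
Ncl: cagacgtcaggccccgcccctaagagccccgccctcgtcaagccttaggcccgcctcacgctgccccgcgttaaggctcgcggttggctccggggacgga
Nme1, upstream start: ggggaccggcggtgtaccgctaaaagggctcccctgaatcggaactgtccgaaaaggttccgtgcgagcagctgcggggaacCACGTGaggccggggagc
Nme1, downstream start: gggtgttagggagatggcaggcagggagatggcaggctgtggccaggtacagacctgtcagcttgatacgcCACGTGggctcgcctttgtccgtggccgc
Each Nme1 stretch held 1 CACGTG, whose first base lay 18 and 29 bases before the start, and these letters were not in the Ncl stretch. Of 32851 such stretches in the table, 3.17% held the motif. A match describes the letters and does not show that MYC binds there.

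The group means of Myc followed a different course in LPS from those of Ncl, Npm1 and Nme1, a difference that was not tested as such. The first LPS samples were taken at 24 h, so an earlier change would not be seen. In Het cells Ncl, Npm1 and Nme1 were 3.47, 3.62 and 4.45 times higher at 24 h than at 0 h, while the means of Myc, the regulator, were 0.71 and 0.72. By 96 h all 4 genes had fallen from their mean over 24 and 48 h in Het cells. In KO cells Ncl, Npm1 and Nme1 fell too, and no member differed between KO and Het cells past the threshold at any time. In such bulk samples fewer cells of a type and less RNA per cell cannot be told apart.

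Myc had its highest means at 0 h, and in Het cells at 24 h as well. On the Het arrays its level was 1.84, 0.40 and -0.07 at 0 h, 1.29 and 0.14 at 24 h, -0.57 and -0.48 at 48 h, and -2.43, -1.48, -1.50 and -0.77 at 96 h. On the KO arrays it was 1.09, 0.12 and 0.16 at 0 h, -2.99, 0.22 and -0.07 at 24 h, -0.63, -0.73 and -0.72 at 48 h, and -1.83, -1.74 and -1.34 at 96 h. Within each genotype every 96 h array lay below every 0 h array. Such separations of arrays were not counted over all genes, here or below. The KO array at 24 h with -2.99, replicate 1, stood far below the other 2 of its group and belongs to the lowest range of database numbers. In the order of the 8 group means, from Het at 0 h (0.72) to KO at 96 h (-1.63), Het at 0 h, Het at 24 h and KO at 0 h overlapped, as did Het and KO at 96 h, while every array of Het at 48 h lay below those of KO at 0 h.

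Ncl was highest at 24 h. Its Het arrays were at 0.48, 0.38 and -1.40 at 0 h, 2.18 and 1.06 at 24 h, 0.60 and 0.60 at 48 h, and -1.75, -1.13, -1.02 and -0.64 at 96 h. Its KO arrays were at 0.55, -0.06 and -0.37 at 0 h, 0.10, 1.33 and 0.76 at 24 h, 0.37, -0.22 and 0.22 at 48 h, and -1.41, -1.59 and -0.93 at 96 h. Both Het arrays at 24 h lay above all Het arrays at 0 h, while in KO cells the arrays of 0 and 24 h overlapped.

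Npm1 had the same shape. Its Het arrays were at 0.10, -0.90 and -1.60 at 0 h, 1.42 and 0.69 at 24 h, 0.69 and 0.33 at 48 h, and -1.97, -1.25, -1.32 and -0.56 at 96 h. Its KO arrays were at -0.10, -0.47 and -0.65 at 0 h, -0.44, 0.93 and 0.42 at 24 h, 0.60, 0.06 and 0.00 at 48 h, and -1.35, -1.62 and -1.27 at 96 h. The Het arrays at 24 h lay above those at 0 h with no overlap, and replicate 3 of Het at 0 h was low for Npm1, Ncl and Nme1 alike.

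Nme1, the nucleotide kinase, had the largest rise at 24 h. Its Het arrays were at 0.28, 0.05 and -1.44 at 0 h, 2.27 and 1.30 at 24 h, 1.22 and 0.99 at 48 h, and -1.61, -0.67, -0.95 and -0.80 at 96 h. Its KO arrays were at 0.52, -0.17 and -0.44 at 0 h, 1.04, 1.38 and 0.91 at 24 h, 0.49, 0.25 and 0.59 at 48 h, and -1.32, -1.48 and -1.15 at 96 h. For Nme1 the 24 h arrays lay above the 0 h arrays in both genotypes without overlap. The highest group means of Ncl, Npm1 and Nme1 were all those of Het at 24 h, and the lowest were those of KO at 96 h, which overlapped with Het at 96 h. The 2 features of each mouse gene were mostly close: their median distance was between 0.11 for Nme1 and 0.30 for Npm1, and the widest was 1.94 (Npm1, Het at 0 h replicate 2).

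**Figure D1:**
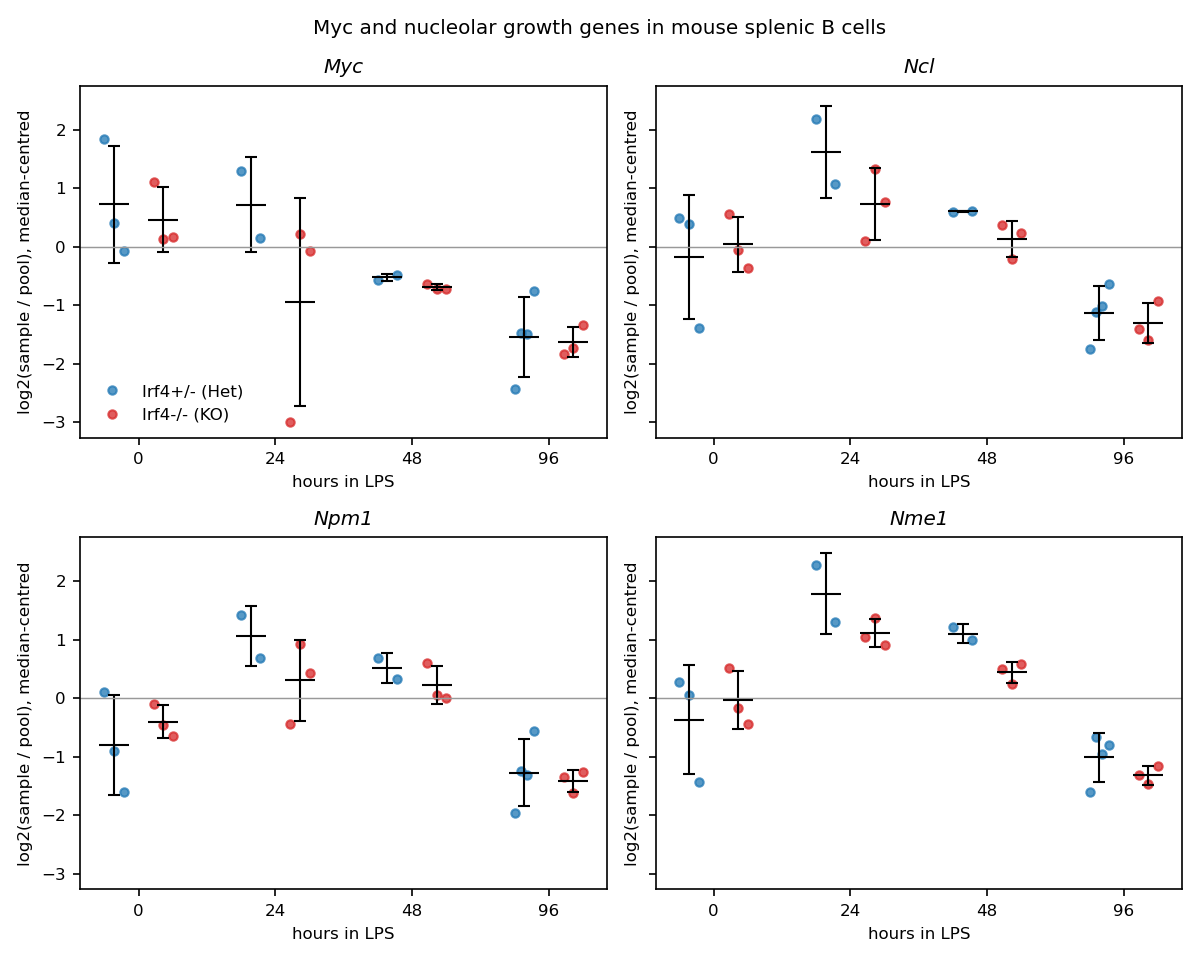
Levels of Myc, Ncl, Npm1 and Nme1 (log2 sample over pool, median-centred) on the 23 mouse arrays against hours in LPS. Points are arrays, blue for Het and red for KO, and black bars give the group mean and its standard deviation; Ncl, Npm1 and Nme1 peak at 24 h, Myc does not, and all 4 are low at 96 h.

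At 24 h of LPS, 3 of 4 members were called higher in Het cells and none lower, where a call is an adjusted p under 0.05 in limma with Benjamini-Hochberg adjustment over the 331 mouse genes. These 331 genes come from 559 of the 12292 mouse features, and 11689 features carry no symbol. Shares of all mouse genes thus leave most of the array out. Of all genes tested 13.3% were called, 10.6% as higher. The difference of Het at 24 h from Het at 0 h was 1.80 ± 0.54 (log2, ± SE) for Ncl (limma adjusted p = 0.0334), 1.86 ± 0.50 for Npm1 (0.0183) and 2.15 ± 0.46 for Nme1 (0.00943). Myc did not pass the threshold (-0.0075 ± 0.75, adjusted p = 0.992, 95% interval -1.59 to 1.58), an interval wide enough to hold a 2-fold change either way. The 3 calls were lost without Het at 24 h replicate 1 (differences of 1.24 to 1.67, adjusted p 0.174 to 0.320), with array weights and in the fit on the 5 arrays of these groups alone, which called 0 of 331 genes (adjusted p = 0.543 for each of the 3). The call of Npm1 was also lost after quantile normalization, and that of Ncl there, without Het at 0 h replicate 3 (1.19, 0.0865), with the replicate block and without the arrays of conflicting labels, so that Ncl kept its call in 9, Npm1 in 12 and Nme1 in 13 of 16 alternative fits. Within the lowest range of database numbers, with 3 of the arrays, Ncl, Npm1 and Nme1 differed by 1.74, 1.82 and 2.10 and Myc by 0.17.

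In KO cells at 24 h no member passed the threshold, and limma called 1.51% of genes; 1 of 4 members had an unadjusted p under 0.05, as had 12.4% of all genes. Nme1 was 1.14 ± 0.42 higher than at 0 h (limma adjusted p = 0.236), Ncl 0.69 ± 0.48 and Npm1 0.71 ± 0.45. Nme1 was called higher in 3 of 17 alternative fits (named-feature centring, array weights, and without the lowest range) and Npm1 in 2 (the first 2 of these), so the absence of a call here depends on the processing. With single arrays left out Ncl ranged from 0.39 to 1.00 and Npm1 from 0.40 to 1.08, lowest without replicate 2 at 24 h and highest without replicate 1. Myc was at -1.41 ± 0.67 (adjusted p = 0.403), a value that rests on replicate 1 at 24 h and came to -0.39 without it. Within the middle and the highest range Myc differed by 0.09 and -0.24, and in the lowest by -4.09. Whether the 24 h response differed between KO and Het cells was not tested as such.

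At 48 h no member passed the threshold in either genotype. In Het cells 8.46% of genes were called and 2 of 4 members had an unadjusted p under 0.05, as had 24.5% of all genes: Nme1 differed from 0 h by 1.47 ± 0.46 (limma adjusted p = 0.0568) and Npm1 by 1.31 ± 0.50 (0.114). Nme1 was called higher in 6 of 16 alternative fits, Npm1 in 4 and Ncl in 1, among them for Nme1 and Npm1 those with named-feature centring and with no centring and that without Het at 0 h replicate 1, and for all 3 that without the lowest range. Ncl differed by 0.78 ± 0.54 and Myc by -1.25 ± 0.75. In KO cells, where 1.51% were called and no member but 8.16% of all genes had an unadjusted p under 0.05, the 4 differences were 0.47 for Nme1, 0.63 for Npm1, 0.085 for Ncl and -1.15 for Myc. In both genotypes the mean of Myc at 48 h was thus below its mean at 0 h and those of the 3 others above.

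**Figure D2:**
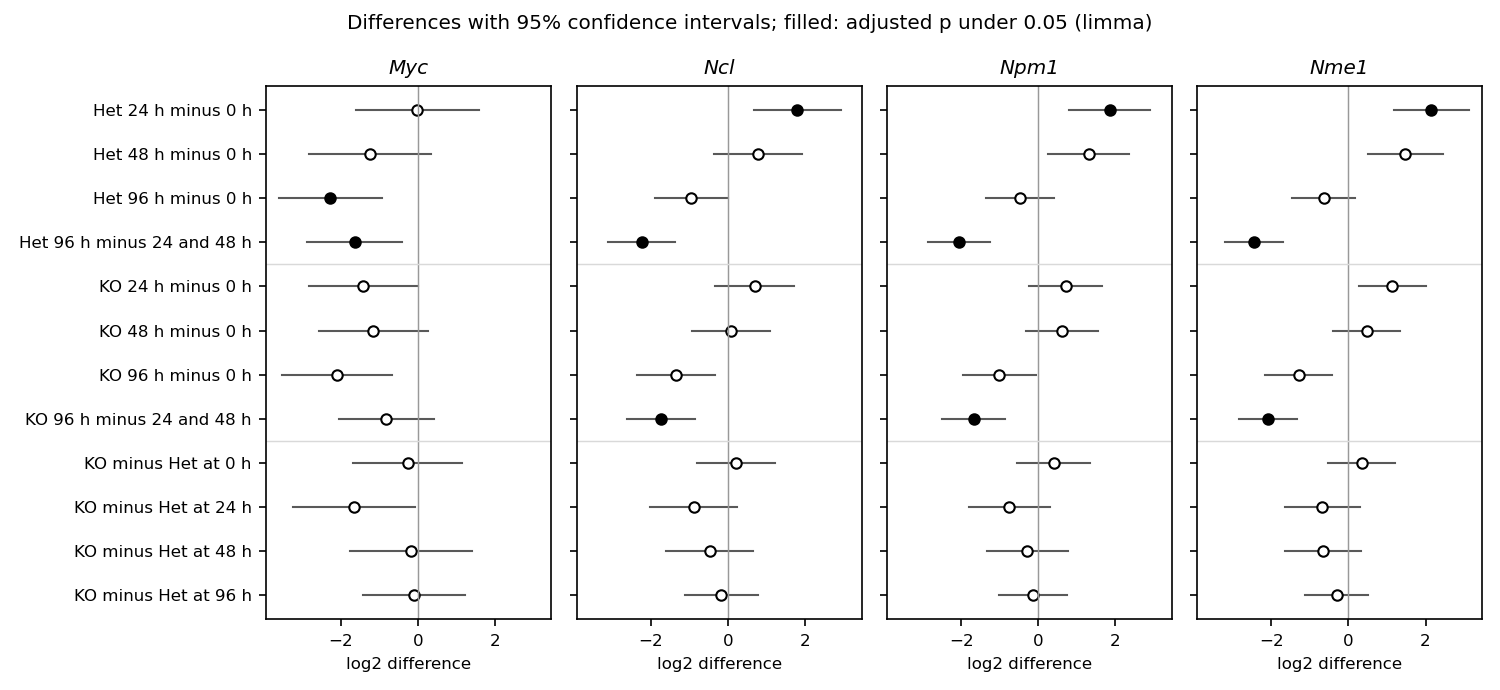
Log2 differences of the 4 mouse members in 12 comparisons, with 95% confidence intervals from limma; filled points have an adjusted p under 0.05. Filled points sit in the Het rows and in the row of KO at 96 h against 24 and 48 h, and none sits in the KO minus Het rows.

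The late fall was the clearest change of these genes. In Het cells at 96 h against the mean of 24 and 48 h, 4 of 4 members fell, with 30.2% of all genes called, 26.9% as lower (11 genes higher and 89 lower). Nme1 fell by 2.45 ± 0.36 (5.47-fold, limma adjusted p = 0.000246), Ncl fell by 2.24 ± 0.42 (4.73-fold, 0.000734), Npm1 fell by 2.06 ± 0.39 (4.16-fold, 0.000734) and Myc fell by 1.64 ± 0.58 (3.11-fold, 0.0426). All 4 Het arrays at 96 h lay below all 4 arrays of 24 and 48 h for each of the 4 genes. How many of all genes lay apart in this way was not counted. The calls of Ncl, Npm1 and Nme1 held in 19 of 19 alternative fits, and that of Myc in 8 of 19. Every Het array at 96 h is in the highest range of database numbers, while the Het arrays at 24 h are in lower ranges. Range and time can thus not be fully told apart here. With each of the 8 arrays of these groups left out in turn (adjusted p 0.0298 to 0.179), the Myc call held only without Het at 24 h replicate 2 or Het at 96 h replicate 4. Centring each array on its named features moved the median of all genes from -0.54 to 0.25 and the split of calls to 51 higher and 42 lower; Ncl, Npm1 and Nme1 then fell by 1.44, 1.26 and 1.65, and Myc was at -0.84 (adjusted p = 0.166).

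In KO cells the same comparison called 3 of 4 members, all lower, against 10.6% of all genes, all lower. Nme1 fell by 2.09 ± 0.36 (4.26-fold, limma adjusted p = 0.00439), Ncl by 1.74 ± 0.42 (3.34-fold, 0.0150) and Npm1 by 1.68 ± 0.39 (3.19-fold, 0.0120). Myc was at -0.81 ± 0.58 (adjusted p = 0.382), and without KO at 24 h replicate 1 at -1.32 (0.0449). Leaving out the 3 arrays with conflicting labels kept the sizes (-1.56 for Ncl, -1.56 for Npm1, -2.04 for Nme1) but called 0 of 331 genes, these 3 included (adjusted p 0.103 to 0.211). The calls of Ncl and Npm1 were also lost without KO at 96 h replicate 1 (adjusted p 0.0778 and 0.0534) and without replicate 2 (0.0958 and 0.0830). Within the highest range of database numbers, which holds every 96 h array, the 4 genes differed by -1.23 (Myc), -1.69 (Ncl), -1.64 (Npm1) and -1.98 (Nme1).

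Against 0 h, Myc was the 1 member called at 96 h, lower and in Het cells. In Het cells Myc fell by 2.27 ± 0.63 (4.81-fold, limma adjusted p = 0.0177), with 25.7% of all genes called and 17.8% called lower. Ncl was at -0.95 ± 0.45 (0.119), Nme1 at -0.64 ± 0.39 (0.206) and Npm1 at -0.47 ± 0.42 (0.394). Het at 0 h had 1 array in the highest range, and against it these 3 genes were at 0.26, 0.43 and 0.33 at 96 h while Myc was at -1.47, so their sign rests on the other 2 arrays at 0 h. Without that array, replicate 3, Ncl (-1.56, adjusted p = 0.0052) and Nme1 (-1.17, 0.010) were called lower. The Myc call was lost without Het at 0 h replicate 1 (-1.71, 0.0846), without Het at 96 h replicate 1 (-1.97, 0.0516), with the range as a factor (-2.24, 0.0962) and in the fit on these groups alone (0.124). In KO cells no member was called, with 0.906% of genes called, although 4 of 4 had an unadjusted p under 0.05, as had 24.5% of all genes: Myc was at -2.09 ± 0.67 (limma adjusted p = 0.113), Ncl at -1.35 ± 0.48 (0.141), Nme1 at -1.29 ± 0.42 (0.113) and Npm1 at -1.01 ± 0.45 (0.179). All 4 were called lower after quantile normalization, with array weights and in the fit on these groups alone, and Myc, Ncl and Nme1 also without the lowest range. The KO and Het responses share no arrays, and their difference at 96 h was 0.17 ± 0.92 for Myc, -0.40 for Ncl, -0.53 for Npm1 and -0.65 for Nme1, none past the threshold in limma, which called 0% of genes there; 0 of 4 members but 12.7% of all genes had an unadjusted p under 0.05.

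The difference between Myc and the mean of Ncl, Npm1 and Nme1 on the same array does not depend on centring. Its zero is set by the ratio of these genes in the reference pool, so the change over time can be read and the sign alone has no meaning. It was highest on the 6 arrays at 0 h (0.35 to 1.55, median 0.71). It was lower on the 5 arrays at 24 h (-3.23 to -0.67, median -0.88) and the 5 at 48 h (-1.41 to -0.76, median -1.12), none of which overlapped with those at 0 h. At 96 h it lay between on all 7 arrays (-0.66 to -0.10, median -0.40). Both genotypes had this order of 0 h, then 96 h, then 24 and 48 h, with means of 1.17 for Het and 0.59 for KO at 0 h, and of -0.41 and -0.29 at 96 h. These values describe the arrays and carry no test.

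**Figure D3:**
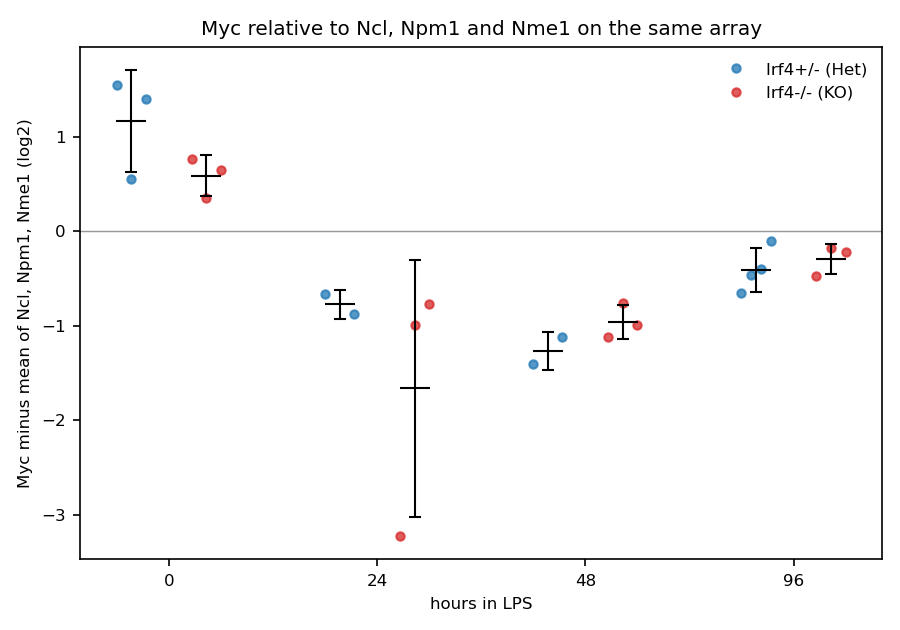
Myc minus the mean of Ncl, Npm1 and Nme1 on the same array (log2) against hours in LPS, 1 point per mouse array, blue for Het and red for KO, with group means and standard deviations in black. The 6 arrays at 0 h lie above all LPS arrays, and those at 96 h lie between them and the arrays at 24 and 48 h; the zero is set by the pool. The lowest point, at -3.23, is KO at 24 h replicate 1.

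Loss of the second Irf4 allele left these genes without a called difference. KO minus Het at 0 h was -0.26 ± 0.67 for Myc, 0.22 for Ncl, 0.40 for Npm1 and 0.34 for Nme1, with 1.81% of genes called by limma; 0 of 4 members and 17.2% of all genes had an unadjusted p under 0.05. At 24 h it was -1.66 ± 0.75 for Myc (limma adjusted p = 0.420), -0.89 for Ncl, -0.75 for Npm1 and -0.68 for Nme1, with 0% of genes called and a median of -0.49 over all genes; 1 of 4 members, Myc, and 9.37% of all genes had an unadjusted p under 0.05. Without KO at 24 h replicate 1 the Myc difference was -0.64, and within the middle range, with 1 array of each genotype, the differences were 0.078 for Myc, 0.27 for Ncl, 0.24 for Npm1 and 0.077 for Nme1. Within the lowest range, also with 1 array of each genotype and with that replicate 1 as the KO array, they were -4.28, -2.07, -1.86 and -1.23 in the same order. At 48 h, with 0% called and 0 of 4 members but 2.72% of all genes at an unadjusted p under 0.05, the 4 differences lay between -0.66 (Nme1) and -0.17 (Myc). At 96 h they were -0.089 for Myc (95% interval -1.41 to 1.24), -0.18 for Ncl (-1.13 to 0.77), -0.14 for Npm1 (-1.01 to 0.74) and -0.31 for Nme1 (-1.13 to 0.51). There limma called 2.72% of genes, all lower in KO cells, and 9.06% of all genes but no member had an unadjusted p under 0.05. Averaged over the LPS times Nme1 was at -0.55 (limma adjusted p = 0.390) and Myc at -0.64 (0.528), with 2.42% of genes called; 1 of 4 members, Nme1, and 11.5% of all genes had an unadjusted p under 0.05. These intervals do not show that the genotypes are alike: at 96 h they still hold differences of about 1 log2 unit, a doubling.

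Markers of cell types and states were averaged in the same groups. The mean of 8 plasma cell markers was between 1.02 and 1.27 on the Het arrays at 96 h and between -0.75 and -0.67 on the KO arrays at 96 h. In Het cells it was between -0.91 and 0.23 at 0 h, -0.83 and -0.48 at 24 h, and 0.22 and 0.41 at 48 h. In KO cells it was between -2.34 and 0.16 at 0 h, -1.82 and -0.13 at 24 h, and -1.34 and -0.73 at 48 h. The mean of 5 mature B-cell markers (Bank1, Btg1, Cd79b, Ets1 and Id3) was 2.12 to 3.66 over the 0 h arrays and 1.64 to 2.28 in Het and 1.78 to 1.81 in KO cells at 96 h; over 24 and 48 h it was 1.44 to 2.21 in Het and 0.90 to 2.52 in KO cells. The T-cell and NK-cell markers Cd3g and Gzma averaged -2.10 to -0.39 in Het and -1.72 to -0.33 in KO cells at 96 h, and lay below 0 on all 23 arrays. The myeloid markers Ncf1 and Tyrobp averaged 1.12 to 1.38 in KO and -0.16 to 0.80 in Het cells at 96 h, and their lowest values, both -3.41, were in Het cells at 0 and 24 h. The part of these cells in the levels of the members was not tested.

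Further MYC growth targets were described as a list. It held 13 other measured mouse genes, with roles in DNA replication (Pcna, Mcm2, Rrm2), the cell cycle (Cdk4), DNA repair (Apex1), growth signalling (Pa2g4), nucleotide synthesis (Ctps), glycolysis and transamination (Ldha, Pkm, Got2), amino acid transport (Slc7a5, Slc3a2) and peroxide removal (Prdx4). In Het cells at 24 h, 6 of these 13 rose and none fell, where 10.6% of all genes were called higher, with a median difference of 1.70 against 0.17 over all genes. Prdx4 was at -1.94 (limma adjusted p = 0.0748), below 0 unlike the 12 others. Pcna, the sliding clamp of DNA polymerase, rose by 2.43 ± 0.59 (limma adjusted p = 0.0121). Mcm2, a subunit of the replicative helicase, rose by 2.14 (0.0179), Ldha, lactate dehydrogenase, by 1.68 (0.0125) and Apex1 by 1.56 (0.0172). Ctps, which makes CTP, rose by 4.71 ± 0.73 (0.000711) from Het levels of -5.36 to -1.60 at 0 h. Rrm2, a subunit of ribonucleotide reductase, rose by 6.21 ± 1.88 (0.0345) from levels of -10.92 to -1.33; without Het at 0 h replicate 2 it was at 3.02. Counting the 3 members too, 9 of 16 rose. The count was 14 with named-feature centring and without centring and 13 without the lowest range, and 1 gene was called lower with named-feature centring and with the range as a factor. It fell to 1 without Het at 24 h replicate 1, to 2 after quantile normalization, to 1 with array weights and to 0 in the fit on these groups alone. In KO cells at 24 h none of the 13 was called by limma, where 1.51% of all genes were. Of the 13, 3 had an unadjusted p under 0.05, as had 12.4% of all genes. The median of the 13 was 0.70, against -0.08 over all genes.

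At 96 h against 24 and 48 h, 10 of these 13 fell in Het cells and 9 in KO cells, with medians of -1.96 and -1.64 against -0.54 and -0.48 over all genes; of all genes 26.9% and 10.6% were called lower. Pcna fell by 2.83 ± 0.45 in Het (limma adjusted p = 0.000274) and by 2.18 in KO cells (0.00958). Mcm2 fell by 2.81 and 2.15, Cdk4 by 2.02 and 1.64, and Slc7a5, an amino acid transporter, by 2.12 and 1.72. Slc3a2, its partner and also on the plasma cell list, was at -0.54 (0.310) in Het and -1.16 (0.0534) in KO cells. Rrm2 was at -1.87 and -1.12, and Prdx4 at 0.68 and -1.26, none past the threshold. In KO cells all 13 differences were below 0; the count over the 16 genes, 12 in the main comparison, was 0 without the arrays with conflicting labels, 1 without KO at 96 h replicate 1 and 2 without replicate 2. No gene of this list was called between KO and Het cells at 24, 48 or 96 h. Of all genes 0%, 0% and 2.72% were called there. At these times 2, 0 and 1 of the 13 had an unadjusted p under 0.05, against 9.37%, 2.72% and 9.06% of all genes. At 0 h 1 was called, Ctps, which was 3.34 ± 0.65 higher in KO cells (limma adjusted p = 0.0109), where 1.81% of all genes were called. There 2 of the 13, Ctps and Rrm2 (4.08), had an unadjusted p under 0.05, against 17.2% of all genes.

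**Figure D4:**
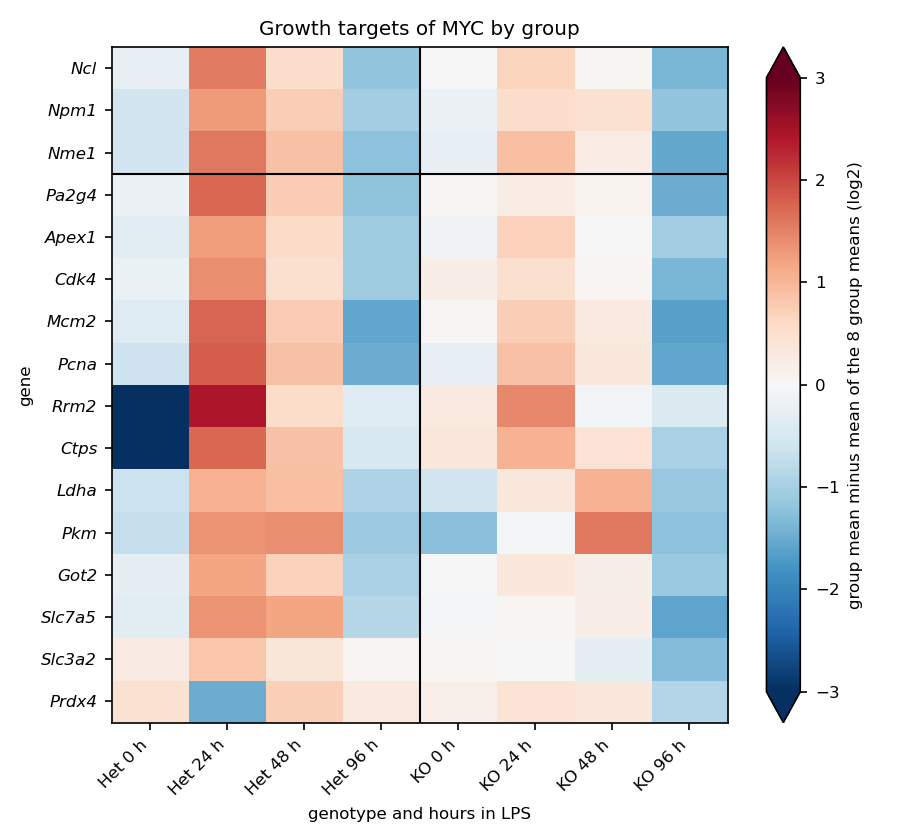
Group means of 16 MYC growth targets on the mouse arrays, each minus the mean of its 8 group means (log2; colours end at -3 and 3), with Ncl, Npm1 and Nme1 above the line. Red at Het 24 h and blue at 96 h in both genotypes show the course of most of these genes. Prdx4 is blue at Het 24 h, and Prdx4 and Slc3a2 are not blue at Het 96 h. The deepest blue, at Het 0 h, is Rrm2 and Ctps.

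Of genes that MYC is known to repress, 4 were measured. Btg1, an antiproliferative gene that was also on the mature B-cell list, was at 2.70 to 4.21 on the Het arrays at 0 h and at 0.55 and 0.91 at 24 h, a fall by 2.81 ± 0.47 (limma adjusted p = 0.00116). In KO cells Btg1 also fell at 24 h, with a difference of -2.47 ± 0.42 (limma adjusted p = 0.00241), where 1.51% of all genes were called. From 24 and 48 h to 96 h it was 0.99 ± 0.36 higher in Het cells (limma adjusted p = 0.0468), a call that held in 9 of 19 alternative fits and in 1 of 8 with single arrays left out (without Het at 48 h replicate 1), and 0.91 higher in KO cells (0.117). Ccnd1, Fth1 and Ndrg1 passed the threshold in none of these comparisons, with differences of -0.76, 0.11 and -1.39 at 24 h in Het cells. Apart from Myc itself, no other gene of the MYC network list had a named feature on the mouse array, the list of nucleolar genes held Ncl and Npm1 there, and the list of polyamine enzymes had none.

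Over the 23 mouse arrays Ncl, Npm1 and Nme1 were more like one another than like Myc. Pearson's r was 0.96 between Ncl and Nme1 and 0.94 for both other pairs, against 0.65 (Ncl), 0.57 (Npm1) and 0.48 (Nme1) with Myc. Among the 330 other genes these 3 took places 70, 108 and 140 in likeness to Myc. The genes most like Myc were Fnbp4, Calm2, Hnrnph1, Ddx3x and Gnb2 (r = 0.93, 0.93, 0.93, 0.91 and 0.89). Those most like Ncl were Cdk4 (0.99), Tuba4a, Dnah7b, Mcm2 and Cycs, those most like Npm1 were Tubb5 (0.98), Mcm2, Tuba4a, Eif2s2 and Dnah7b, and those most like Nme1 were Ahcy (0.97), Apex1, Pcna, Ncl and Cycs. The arrays share the reference pool, the centring and the LPS course, so these correlations are a description and carry no test.

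In OCI-Ly7 cells none of the 6 members passed the threshold, where 0.109% of the 4604 genes (5) were called by limma; 1 of 6 members, NPM1, and 23.9% of all genes had an unadjusted p under 0.05. On the arrays of day 2, day 3 replicate 1, day 3 replicate 2 and day 5, in this order, MYC was at 0.27, 1.80, 0.35 and 0.86. All 4 arrays lay above 0, with a mean of 0.82 ± 0.35 (SE, n = 4 arrays, limma adjusted p = 0.216, 95% interval -0.03 to 1.67). Of its 4 features, 1 lay below 0 on day 2 (-0.94) and on day 3 replicate 2 (-0.68). MAX, the partner of MYC, was at -0.11, 0.72, -0.86 and 0.01 (mean -0.059 ± 0.33, adjusted p = 0.920). Its low value at day 3 replicate 2 came from 1 of 5 features at -5.05, while the other 4 lay between -0.05 and 0.39 there; with the median of the features its mean was 0.39 (adjusted p = 0.460).

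The gene means of NCL and NPM1 differed in the line, and so did the 2 features of NPM1. NCL, with 1 feature, was at -0.67, 1.78, -1.14 and -1.64 (mean -0.42 ± 0.59, adjusted p = 0.661). NPM1 was at 0.02, 1.40, 1.35 and 0.79 (mean 0.89 ± 0.33, limma adjusted p = 0.188), above 0 on 4 of 4 arrays, and its 2 features were up to 2.10 apart. Of these, 1 was at -0.01, 2.09, 0.30 and 0.34, highest on day 3 replicate 1 as NCL was. The other was at 0.05, 0.71, 2.40 and 1.25, highest on day 3 replicate 2. NCL was thus below 0 on the 3 arrays other than day 3 replicate 1, where NPM1 was above 0 on all.

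The metabolic genes were high on 1 array. NME1 was at 0.32, 1.94, 0.12 and 0.10 (mean 0.62 ± 0.39, limma adjusted p = 0.353) and ODC1 at 0.05, 2.00, -0.10 and 0.26 (mean 0.55 ± 0.42, adjusted p = 0.426). The 4 features of ODC1 lay between 1.75 and 2.17 on day 3 replicate 1. Without that array the means were 0.18 for NME1, 0.07 for ODC1, 0.49 for MYC, 0.72 for NPM1, -0.32 for MAX and -1.15 for NCL. The 4 IRF4 features were also highest there apart from 1, at 0.59 to 0.77, against -0.92 to 0.86 on the other arrays.

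**Figure D5:**
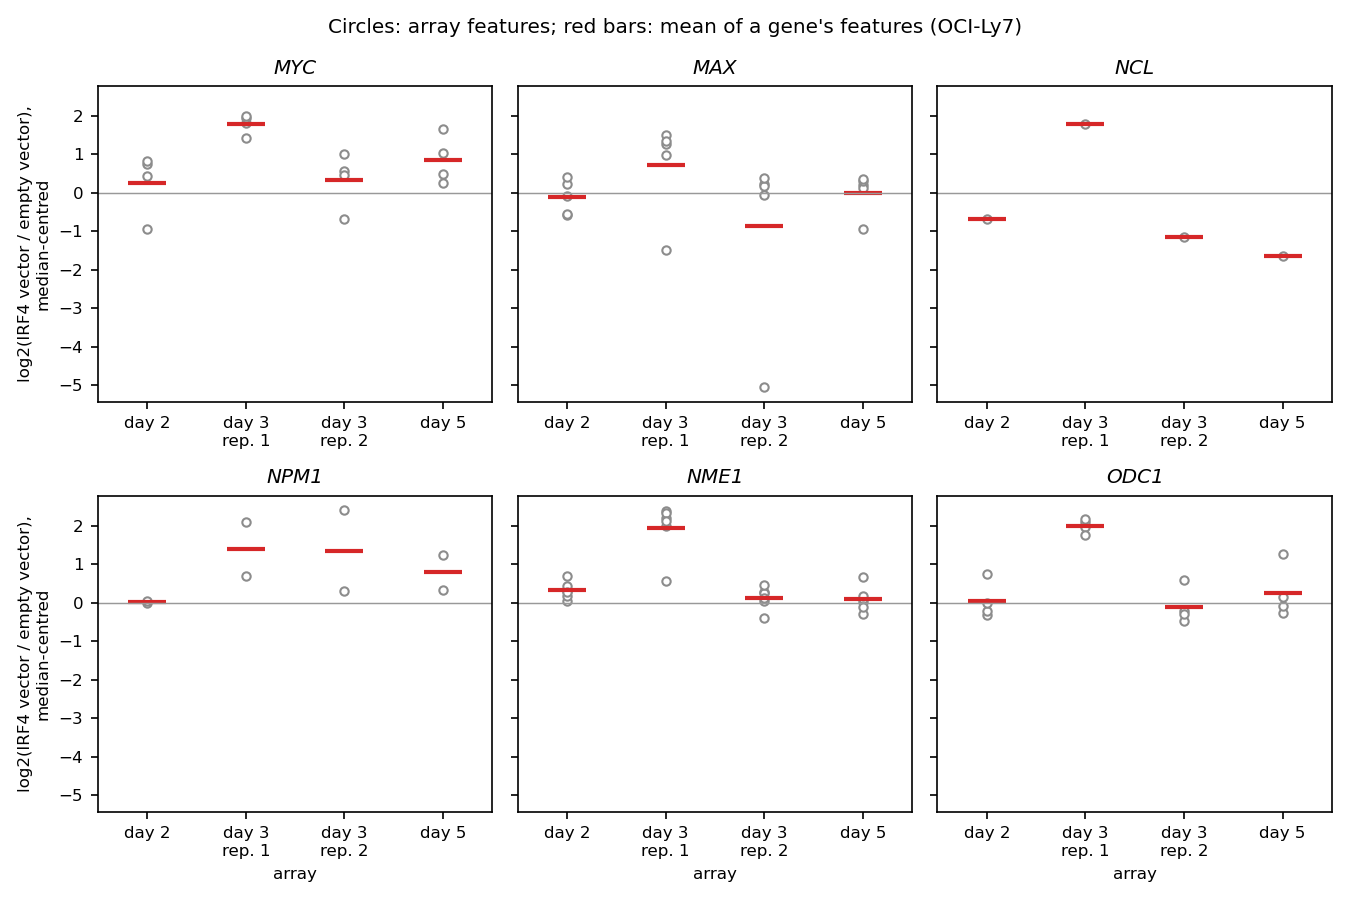
Features (circles) and gene means (red bars) of the 6 human members on the 4 OCI-Ly7 arrays, as log2 of IRF4 vector over empty vector, median-centred. The gene means of all 6 are highest on day 3 replicate 1, and 1 MAX feature lies at -5.05 on day 3 replicate 2.

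The wider lists showed the same array apart. On day 3 replicate 1 the 41 measured growth targets had a median of 1.28 and 24 of them lay above 1, and the 18 nucleolar genes had a median of 1.26 with 10 above 1. On the 3 other arrays the medians were -0.49 to -0.27 for the growth targets and -0.52 to -0.36 for the nucleolar genes. Of all genes 15.8% lay above 1 on that array, against 6.21%, 5.21% and 13.0% on day 2, day 3 replicate 2 and day 5. What set that array apart was not tested.

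No gene of the lists passed the threshold in the line by limma, and the counts at an unadjusted p under 0.05 were 6 of 37 growth targets without the members (1 higher, 5 lower), 5 of 16 nucleolar genes, 1 of 5 genes of the MYC network, 1 of 2 polyamine enzymes and 4 of 10 repressed genes, where 23.9% of all genes had such a p. MXD3, a MAX partner that opposes MYC, was at -2.82, -1.84, -0.89 and -1.56 (mean -1.78 ± 0.37, limma adjusted p = 0.130), below 0 on 4 of 4 arrays. MYCN, MXD1, MXD4 and MYCL had means of -0.70, 0.17, 0.15 and -0.15. Among the nucleolar genes NPM3 averaged 0.94 and POLR1D 0.63, and POLR1E, WDR3 and PES1 averaged -3.12, -2.11 and -2.17 (adjusted p 0.130 to 0.223 over these 5).

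Among the growth targets PRDX4, a peroxiredoxin of the secretory pathway, averaged 1.93 ± 0.41 (limma adjusted p = 0.130), at 1.30, 3.33, 1.35 and 1.76 on the 4 arrays, and CTPS1 averaged 0.65. EIF4G1, a translation initiation factor, averaged -2.07 (0.124), ENO1, the glycolytic enzyme enolase, -1.64 (0.130) and MCM4 -1.72 (0.156). Of the repressed genes BTG1 averaged 1.60 ± 0.33 (0.124), TXNIP 1.58 (0.130) and CDKN1B 0.83, each above 0 on 4 of 4 arrays, while GADD45B averaged -0.79, CDKN1A -0.10 and GAS1 -0.021. SAT1, which breaks polyamines down, averaged 0.77 and SMOX, a spermine oxidase, -2.05. Among markers, the median was 1.71 over 10 plasma cell genes, IRF4 among them, against -0.14 over all genes. It was -0.45 over 16 mature B-cell genes and -0.45 over 7 germinal centre genes. The T-cell and NK-cell markers (18 genes) were at -0.37 and the myeloid markers (8 genes) at -0.26. By limma 1 plasma cell gene was called, as higher, and no gene of the other marker lists, where 0.109% of all genes were called.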

How the data were processed

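RNA was measured on 2-colour lymphochip arrays, 23 of mouse B cells and 4 of OCI-Ly7 cells. The authors deposited a log2 ratio per feature and array, for 12292 mouse and 15246 human features, none missing. That the base is 2 was read from how far the values reach. The sources used here do not give scanner, background correction or normalization. Single-channel signals were not analysed here, so signal over background was not checked. Trizol was used for extraction and a reverse transcription reaction for labelling, per the labels' protocols.

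The median over all features was subtracted from every array. Genes were the mean of features with 1 symbol in the platform annotation (559 mouse features, 331 genes; 10169 human features, 4604 genes). Groups came from array titles. Group means of genotype and time were fitted for all mouse genes together, and human ratios were tested against 0, with limma 3.58.1 in R 4.3.3, two-sided, with Benjamini-Hochberg adjustment over all genes of a comparison and a threshold of 0.05. Scripts were tested on simulated data. Members and lists were chosen with earlier results of these data known. The genes named were all members, the measured mouse genes of the lists, in human up to 3 genes per list and direction with the smallest p, and the 5 mouse genes most like each member. Alternatives covered centring, quantile normalization, array weights, the replicate number, database ranges, conflicting labels, features and single arrays.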

Additional observations from a re-analysis of the deposited data

Results flagged for a closer look

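On the OCI-Ly7 arrays NME1 stood at 1.94 on day 3 replicate 1, with a gap to the next array of 0.877 of the whole range over 4 arrays. ODC1 stood at 2.00 on the same array, with a gap of 0.830 of its range, just past the 95% critical value of Dixon's test. In this test of the sample farthest from its group, 10 groups of 4 arrays were looked at (4 mouse members at 96 h in Het cells and 6 human members), and chance sets apart about 1 group in 20. Both genes share the array, whose growth targets as a list were also high, so they are not independent; the cause was not tested.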

How the results depend on the processing

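Across the alternatives the members kept direction and side of the threshold in 975 of 1090 fits; 40 lost a call, 37 gained one and 38 changed sign, and the cause was not tested. A call can be lost only where the main comparison had one, which holds for a minority of these fits. Thus 40 of 1090 is not the share of calls lost. The number of arrays, 2 to 4 a group, and their unequal spread limit the precision.

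Myc in Het cells at 24 h, near 0, turned to 0.044 without centring, 0.11 after quantile normalization, 0.023 with the replicate block and 0.21 without the lowest database range, and ranged from -0.58 to 0.57 with single arrays left out. Myc in Het cells at 96 h against 24 and 48 h lost its call with named-feature centring (-0.84), without centring (-1.42), with the replicate block (-1.93), with the range as a factor (-1.58) and without conflicting labels (-1.64, fewer arrays), and ranged from -1.93 to -1.34 with single arrays left out. Myc in Het cells at 96 h against 0 h lost it with the range as a factor (-2.24), without the lowest range (-1.47) and with only the groups compared (-2.27), and ranged from -2.66 to -1.71. In KO cells Myc at 96 h gained a call against 0 h after quantile normalization (-3.73), with array weights (-1.94), without the lowest range (-1.78) and with only the groups compared (-2.09), and against 24 and 48 h after quantile normalization (-2.25), with weights (-1.23) and without the lowest range (-1.32), where single arrays gave -1.32 to -0.52.

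KO minus Het for Myc at 96 h turned to 0.060 with named-feature centring and 0.17 with the replicate block (single arrays -0.39 to 0.17), at 0 h to 0.21 without the lowest range (-0.66 to 0.30), and the difference of responses to -0.72 after quantile normalization and -0.30 without the lowest range (-0.39 to 0.57). For Npm1 at 96 h it turned to 0.011 with named-feature centring and 0.10 with the replicate block (single arrays -0.37 to 0.10). At 0 h array weights gave -0.21 for Ncl, -0.087 for Nme1 and -0.061 for Npm1, and single arrays -0.39 to 0.55, -0.19 to 0.66 and -0.0038 to 0.85. The difference of responses of Ncl ranged from -0.73 to 0.21. Against 0 h in Het cells at 96 h, Npm1 turned to 0.15 with named-feature centring, and without the lowest range Ncl, Nme1 and Npm1 turned to 0.26, 0.43 and 0.33. Ncl in KO cells at 48 h turned to -0.0015 with named-feature centring and to -0.26 under both other readings of the conflicting labels (single arrays -0.12 to 0.34).

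Of list genes, Fth1 at 24 h in Het cells was at -0.17 (named-feature centring), -0.24 (weights), -0.014 (replicate block), -0.094 (range factor) and -0.14 (conflicting labels as Het; single arrays -0.54 to 0.50), and at 96 h against 24 and 48 h at 0.090 (named-feature centring). Ccnd1 there was at 0.77 (named-feature centring), 0.19 (no centring), 0.17 (without the lowest range) and 0.52 (conflicting labels as Het; single arrays -0.51 to 0.45), at 24 h at 0.45 (range factor) and in KO cells at 96 h at -0.11 (quantile; single arrays -0.028 to 1.96). Ndrg1 in Het cells at 96 h ranged from -2.36 to 0.37 over single arrays. Slc3a2 in Het cells at 96 h was at 0.26 (named-feature centring) and 0.0019 (range factor), and Prdx4 at -0.41 (quantile) and -0.40 (without the lowest range; single arrays -0.40 to 1.75), and at 24 h at 0.24 (without the lowest range; single arrays -4.08 to 0.21). In OCI-Ly7 cells MAX was at 0.39 (median of features; single arrays -0.32 to 0.21), GAS1 at 0.0037 (named-feature centring) and 0.35 (weights; single arrays -0.50 to 0.78), MXD1 at -0.020 (no centring), MXD4 at -0.046 (no centring) and -0.16 (weights; single arrays -0.070 to 0.45), and MYCL at 0.033 (quantile) and 0.34 (weights; single arrays -0.66 to 0.45). CDKN1A ranged from -0.28 to 0.21 over single arrays.

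Whether replicate numbers pair the arrays is unclear: of 10 same-number pairs 5 had a correlation of deviations over 0.1 (-0.17 to 0.51). Their median was 0.10, against -0.03 for other pairs. The highest, 0.51 and 0.49, were at 48 h, where the deviations of the Het arrays mirror each other. The main comparisons took the arrays as unpaired. With the replicate block the Ncl call in Het cells at 24 h was lost (difference 1.73). Calls of all genes in Het cells were, higher and lower, 55 and 44 at 24 h with named-feature centring against 35 and 9, and in KO cells at 96 h against 24 and 48 h 18 and 25 against 0 and 35. In OCI-Ly7 cells 0 were called higher and 0 or 1 lower with single arrays left out, with both other centrings and with the median of features, and 21 and 73 were called after quantile normalization and 81 and 181 with weights, against 2 and 3.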
